A study of Mus musculus with 16 samples.

Results

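The data are bulk RNA sequencing of regulatory T cells (Tregs), the T cells that express the transcription factor Foxp3 and hold immune responses in check. They ask which genes differ between CCR8+ and CCR8- Tregs in one way in the injured heart and in another way in the mediastinal lymph node (MLN), the node that drains the chest. For each gene the interaction was computed: the difference of heart CCR8+ minus heart CCR8-, minus the difference of MLN CCR8+ minus MLN CCR8-. All 16 libraries entered it, 4 in each of 4 groups: CCR8+ and CCR8- cells from the heart, and CCR8+ and CCR8- cells from the MLN. Of 10369 genes tested, 42 (0.405%) passed, 30 (0.289%) with a positive interaction and 12 (0.116%) with a negative one.

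Every group came from Foxp3-GFP reporter mice aged 8 weeks, 7 days after myocardial infarction (MI), so all groups share the reporter allele and the infarct, and no uninjured animals are among them. Each library was made from about 100 sorted cells. The sources used here do not say whether each library had its own mouse, so the p-values measure the spread between libraries, which may be technical. Levels are given as log2(FPKM + 1), where FPKM is fragments scaled by transcript length and library size, as mean ± SD over 4 libraries unless stated. Differences and interactions are on the same log2 scale with their standard error (SE), and a gene is called at an adjusted p (limma, Benjamini-Hochberg) under 0.05.

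CCR8 is a chemokine receptor carried by Tregs that have been activated by antigen and by many Tregs that live in tissues outside lymphoid organs. Tregs in injured tissue are known for a repair programme that includes the IL-33 receptor ST2 (Il1rl1) and the growth factor amphiregulin (Areg), while those in lymph nodes recirculate and respond to antigen there. A CCR8+ cell in a node and a CCR8+ cell in a tissue carry the same marker and may be in different states, and the interaction sets these side by side. In bulk RNA, fewer cells of a type and less RNA per cell cannot be told apart.

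The libraries had 10691 to 12704 genes above 0, and their read numbers are unknown. Cd3e, part of the T cell receptor complex, was at 6.51 to 8.62 in all 16 libraries, and Foxp3 was at 4.32 to 6.46. Markers of other cells were present. The mean of the fibroblast list was 0.71 to 3.67 in heart CCR8+ and 2.92 to 4.51 in heart CCR8- libraries, against 0.01 to 0.28 in MLN CCR8+ libraries, with 0.01 to 0.46 in MLN CCR8- libraries. The macrophage list stood highest in heart CCR8+ replicate 2 (6.01), and the endothelial list in heart CCR8- replicate 3 (5.26). The B cell list was at 1.26 to 3.19 in MLN CCR8+ libraries and 0.55 to 1.86 in MLN CCR8- libraries. The main counts are given at the end with these heart libraries left out and with covariates for the marker lists.

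Ccr8 itself, the gene of the sorted marker, was measured first. It read 9.76, 9.75, 10.21 and 10.32 in heart CCR8+ libraries and 8.56, 8.20, 8.73 and 8.32 in heart CCR8- libraries. MLN CCR8+ libraries had 7.39, 8.18, 7.48 and 8.06, and MLN CCR8- libraries 4.33, 4.80, 5.41 and 3.85. The 4 groups did not overlap, but heart CCR8- and MLN CCR8+ libraries nearly touched, and their difference of 0.68 ± 0.28 was not called (adjusted p = 0.121). CCR8+ cells exceeded CCR8- cells by 1.55 ± 0.28 in the heart (adjusted p = 0.0234) and by 3.18 ± 0.28 in the MLN (adjusted p = 3.00e-06). Its interaction of -1.63 ± 0.40 was not called (adjusted p = 0.0990).

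Each called gene was then assigned to the group that stands apart, meaning that its mean lies farther from the nearest of the other means than those 3 lie from each other. MLN CCR8+ Tregs stood apart for 24 of the 42 genes (57.1%), against 19.7% of all tested genes. In 18 of the 24 they were lowest and in 6 highest. Heart CCR8+ Tregs stood apart for 3 genes (7.14%, against 9.48% of all tested) and heart CCR8- Tregs for 1 (2.38%, against 12.8%). MLN CCR8- Tregs did so for 3 (7.14%, against 10.4%), and for 11 genes (26.2%, against 47.7%) no single group did. Since the interaction and the means chose these genes, the single comparisons among the same libraries describe them and test nothing further. All 24 were called in MLN CCR8+ Tregs against each of the other 3 groups, as were 9.79% of the 2044 tested genes with MLN CCR8+ apart, and for 21 of the 24 no comparison among those 3 groups was called (8.81% of the 2044). In 22 of the 24, all 4 MLN CCR8+ libraries lay above or below the other 12, against 14.8% of the 2044 and 3.74% of all tested genes. Single comparisons called 14.9% of tested genes for heart CCR8- against MLN CCR8+, 9.79% for heart CCR8+ against MLN CCR8+, 4.56% for heart CCR8- against MLN CCR8-, 3.95% for heart CCR8+ against MLN CCR8-, 0.366% for CCR8 in the heart and 4.14% for CCR8 in the MLN.

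**Figure D1:**
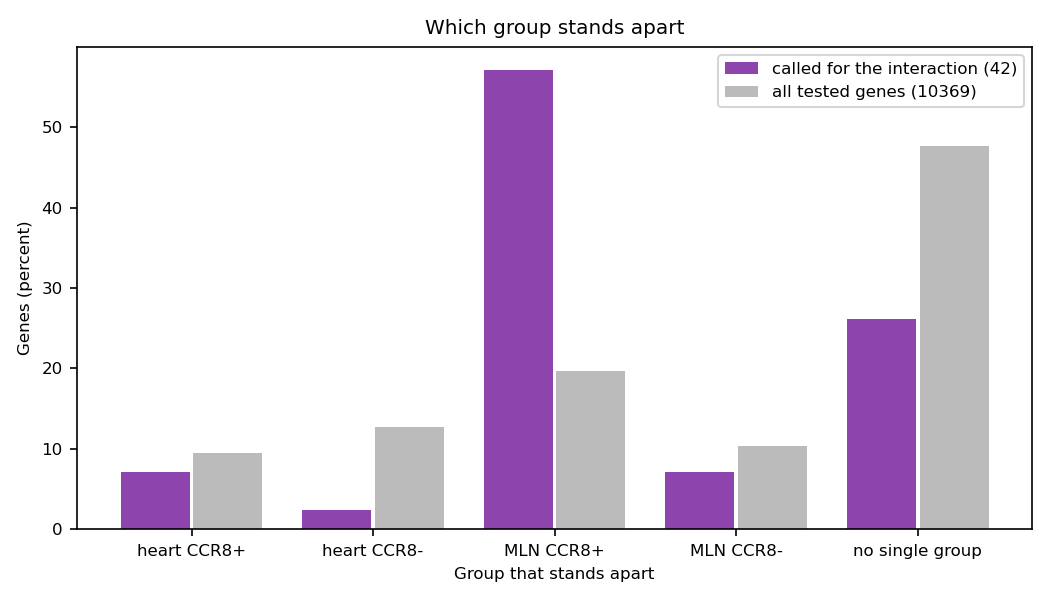
Share of genes (percent, vertical axis) by the group that stands apart (horizontal axis), for the 42 genes called for the interaction (purple) and all 10369 tested genes (grey). The purple bar for MLN CCR8+ reaches 57.1%, against 19.7% of all tested genes, while the bar for no single group is lower among called genes (26.2%) than among all tested (47.7%).

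Set out by tissue, the called genes lay along the MLN axis. The CCR8 difference was larger in absolute size in the MLN than in the heart for 35 of 42 genes (83.3%, against 55.1% of all tested), and it had opposite signs in the tissues for 38 of 42 (90.5%, against 46.8%). These differences are the terms of the interaction, so the shares describe the called genes and are not tested. The median of the 30 positive genes was 0.47 in the heart and -1.67 in the MLN, and that of the 12 negative genes was -0.59 in the heart and 2.49 in the MLN. Abundant genes prevailed: 23 of the 42 lay above the 90th percentile of mean level (6.63).

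**Figure D2:**
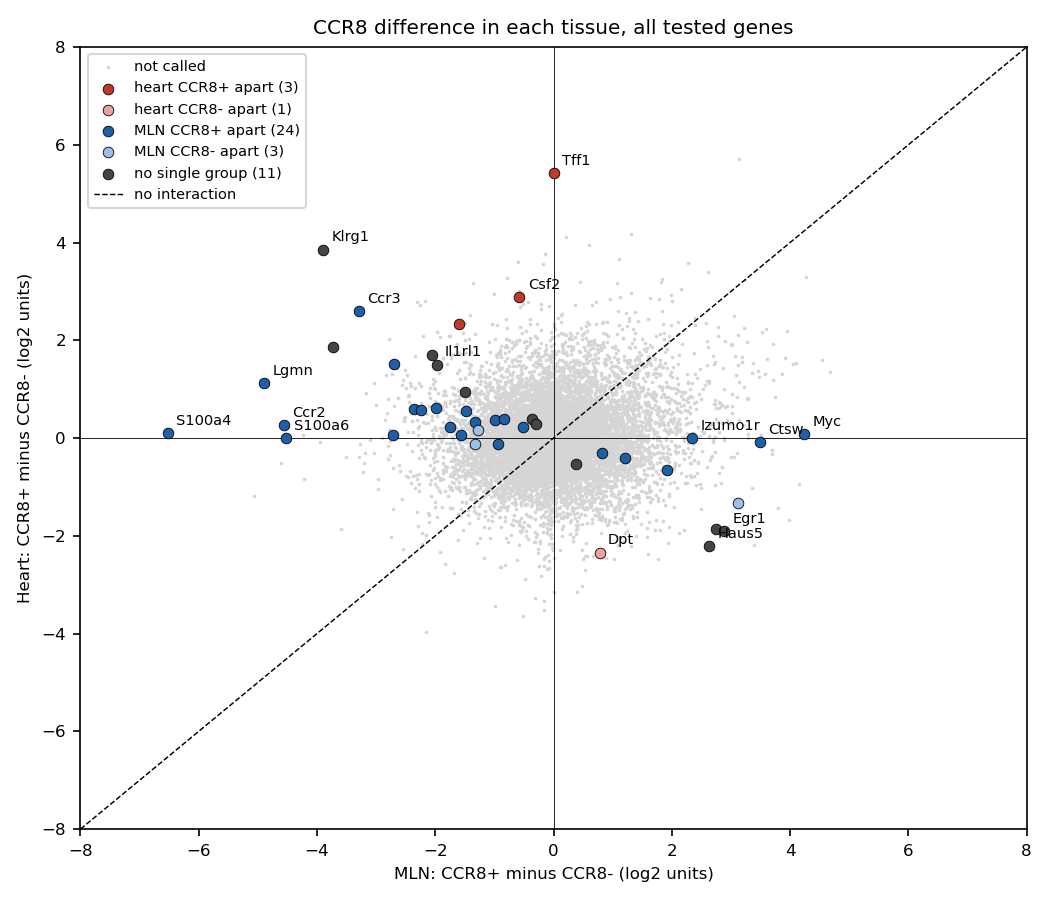
CCR8+ minus CCR8- difference in the heart (vertical axis, log2 units) against the same difference in the MLN (horizontal axis, log2 units) for each tested gene. Grey points were not called, coloured points are the 42 called genes by the group that stands apart, and on the dashed line the interaction is 0; S100a4 at -6.53 and Myc at 4.24 in the MLN lie close to 0 in the heart, while Tff1 lies at 5.42 in the heart and 0.00 in the MLN.

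**Figure D3:**
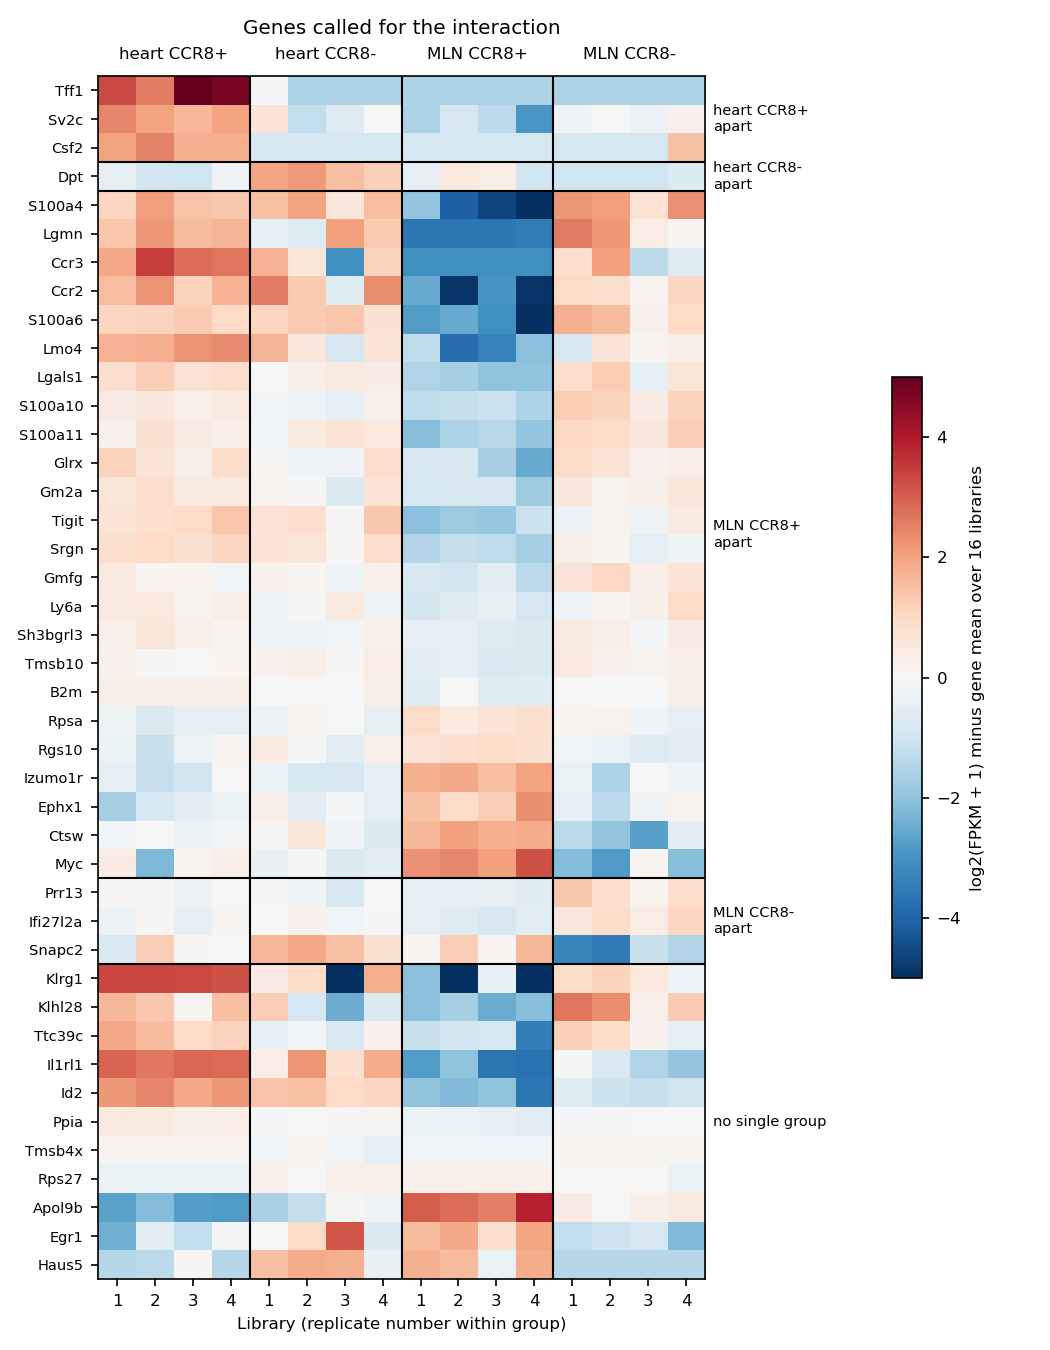
Levels of the 42 called genes (down the page, grouped by the group that stands apart) in each of the 16 libraries (across), as log2(FPKM + 1) minus the gene's mean over the libraries; red is above and blue below that mean, and colours end at 5 units either way. The block of 24 genes shows the 4 MLN CCR8+ columns mostly blue in 18 genes and red in 6, against the other 3 groups.

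Among the 18 genes with MLN CCR8+ lowest were 4 of the S100 family, small calcium-binding proteins that mark effector and memory T cells and bind cytoskeletal partners. S100a4 (chr3:90603771-90606045, plus strand, GRCm38), linked to cell motility, had the largest interaction of the 18 and read 11.83, 12.86, 12.18 and 12.11 in heart CCR8+ libraries and 12.21, 12.77, 11.31 and 12.28 in heart CCR8- libraries. Values of 8.76, 6.67, 6.15 and 2.59 were found in MLN CCR8+ libraries, against 12.94, 12.82, 11.49 and 13.01 in MLN CCR8- libraries. All 4 MLN CCR8+ libraries were below the other 12, and their own spread was wide. The exons of S100a4 overlap Gm42674 on the same strand. S100a4 fell by 6.53 ± 0.78 in MLN CCR8+ against MLN CCR8- cells (adjusted p = 8.26e-05) and differed by 0.10 ± 0.78 in the heart, which gave an interaction of 6.62 ± 1.10 (adjusted p = 0.00671). At the same size it was not called when low genes were kept (adjusted p = 0.0882) or when the variance trend was dropped (adjusted p = 0.0526).

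S100a6 (chr3:90612882-90624181, plus strand), or calcyclin, was at 9.85, 9.88, 10.09 and 9.77 in heart CCR8+ libraries and 9.85, 10.07, 10.15 and 9.54 in heart CCR8- libraries. It was at 5.98, 6.27, 5.71 and 3.53 in MLN CCR8+ libraries and 10.54, 10.34, 8.99 and 9.75 in MLN CCR8- libraries. The means of the other 3 groups were all 9.90, and only the MLN CCR8+ mean, 5.37, differed. The interaction was 4.52 ± 0.61 (adjusted p = 0.000868).

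S100a10 (chr3:93555080-93564643, plus strand), the partner of annexin A2, had the smallest p of all tested genes. Its levels were 12.18, 12.35, 12.05 and 12.28 in heart CCR8+ libraries and 11.64, 11.56, 11.35 and 12.03 in heart CCR8- libraries. They were 10.52, 10.61, 10.71 and 10.24 in MLN CCR8+ libraries and 13.05, 12.90, 12.18 and 12.94 in MLN CCR8- libraries. MLN CCR8+ cells were lowest without overlap, and heart CCR8- minus MLN CCR8- was -1.12 (adjusted p = 0.000614). The interaction was 2.82 ± 0.24 (adjusted p = 3.28e-06). S100a10 ranked 34 to 45 in heart CCR8+, 46 to 76 in heart CCR8- and 13 to 40 in MLN CCR8- libraries. In MLN CCR8+ libraries it ranked 110 to 139. The top 74 ranks carry the same values in every library, so values within them are steps between ranks. S100a11 (chr3:93520488-93526287, plus strand) averaged 11.25 ± 0.24 in heart CCR8+ cells and 11.19 ± 0.37 in heart CCR8- cells, with 9.04 ± 0.34 in MLN CCR8+ cells and 11.76 ± 0.28 in MLN CCR8- cells. Its interaction was 2.77 ± 0.27 (adjusted p = 2.18e-05).

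All 4 genes lie on chromosome 3. Their list of S100, annexin and galectin genes had 20 members tested, of which these 4 were called, all positive. The list's median interaction was 0.51, against 0.04 over all tested genes, with 14 members positive and 6 negative. Among all 10369 tested genes 5342 had a positive interaction and 0.405% were called, the base for this and each later list. S100a13, a neighbour of S100a4 on the same chromosome that was picked out after its values were seen, had an interaction of 0.99 ± 0.30 that was not called (adjusted p = 0.168). Galectin-1 (Lgals1), a secreted lectin that binds glycans on T cells and was kept in the effector list, followed the same pattern. It averaged 11.39 ± 0.22 in heart CCR8+ cells and 10.79 ± 0.20 in heart CCR8- cells, with 8.68 ± 0.24 in MLN CCR8+ cells and 11.04 ± 0.76 in MLN CCR8- cells, with an interaction of 2.96 ± 0.36 (adjusted p = 0.000292).

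The sequences just upstream of S100a4, S100a6 and S100a11 are shown because the S100 genes moved together. No promoter was found for S100a10. Each run is the 250 bases before the RefSeq start on the plus strand (GRCm38.p6), at chr3:90603520-90603769 for S100a4, chr3:90612644-90612893 for S100a6 and chr3:93520246-93520495 for S100a11. Capitals mark matches to the 6 motifs searched on both strands, which do not overlap here.
S100a4: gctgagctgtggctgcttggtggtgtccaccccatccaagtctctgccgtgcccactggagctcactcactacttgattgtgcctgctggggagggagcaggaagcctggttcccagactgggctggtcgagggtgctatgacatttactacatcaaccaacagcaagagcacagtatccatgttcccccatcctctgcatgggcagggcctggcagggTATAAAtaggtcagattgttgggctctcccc
S100a6: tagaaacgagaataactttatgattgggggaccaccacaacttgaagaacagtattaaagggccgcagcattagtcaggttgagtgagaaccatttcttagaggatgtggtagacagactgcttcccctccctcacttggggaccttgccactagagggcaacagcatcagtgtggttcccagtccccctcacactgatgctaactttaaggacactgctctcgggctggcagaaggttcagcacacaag
S100a11: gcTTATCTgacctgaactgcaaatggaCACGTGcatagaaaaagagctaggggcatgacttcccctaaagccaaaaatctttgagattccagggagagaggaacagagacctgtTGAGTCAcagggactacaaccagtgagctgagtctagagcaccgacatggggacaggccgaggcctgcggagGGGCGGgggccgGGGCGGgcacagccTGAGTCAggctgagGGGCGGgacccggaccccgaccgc
S100a4 holds a TATA match 31 bases before its start. S100a6 holds none of the letters searched. S100a11 holds AP-1 matches 136 and 38 bases before its start, GC boxes at 64, 52 and 24, an E-box at 223 and a GATA match at 248.

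Promoters were found for 31 of the 42 called genes. The AP-1 letters (TGANTCA) were in 3 of the 31 (9.68%), those of S100a11, Ccr3 and Glrx, against 4.10% of the 8338 promoters of tested genes. The GATA letters (AGATAA) were in 7 promoters (22.6%, against 6.03% of those tested). A TATA match (TATAAA) was found in 5 promoters (16.1%, against 6.63%) and a GC box (GGGCGG) in 14 promoters (45.2%, against 59.0%). The E-box (CACGTG) was in 2 promoters (6.45%, against 8.52%) and the CRE letters (TGACGTCA) in none, against 2.88% of those tested. These shares describe letters in a window and were not tested.

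Receptors for inflammatory chemokines were the next group. Ccr2 (chr9:124101950-124113557, plus strand), the receptor for CCL2 that draws cells to inflamed tissue, read 6.49, 7.19, 6.08 and 6.66 in heart CCR8+ libraries and 7.48, 6.24, 4.34 and 7.27 in heart CCR8- libraries. MLN CCR8+ libraries had 2.40, 0.09, 1.99 and 0.02, and MLN CCR8- libraries 5.90, 5.74, 5.12 and 6.002. The MLN CCR8+ libraries were all below the others, and no comparison among the other 3 groups was called. Ccr2 fell by 4.57 ± 0.62 in MLN CCR8+ cells against MLN CCR8- cells (adjusted p = 0.000335), and its interaction was 4.84 ± 0.88 (adjusted p = 0.0118).

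Ccr3 (chr9:124021972-124031689, plus strand), the eotaxin receptor, was at 4.97, 6.501, 5.83 and 5.73 in heart CCR8+ libraries and 4.79, 3.67, 0.00 and 4.19 in heart CCR8- libraries. It was listed at 0 in all 4 MLN CCR8+ libraries, against 3.87, 5.11, 1.75 and 2.42 in MLN CCR8- libraries. Heart CCR8- replicate 3, the library with the high endothelial list, was also at 0, so the groups touch there. The interaction was 5.88 ± 1.21 (adjusted p = 0.0321), and it was called in only 7 of 16 fits that left out 1 library each (4.83 to 6.43). Of 23 tested genes for chemokine receptors and homing, Ccr2 and Ccr3 were called, both positive. That list had 14 members with a positive and 9 with a negative interaction, beside 5342 positive among all 10369 tested genes, and a median of 0.61.

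The 250 bases before the RefSeq start of Ccr3 (GRCm38.p6, plus strand, chr9:124021721-124021970) are shown because Ccr3 was at 0 throughout MLN CCR8+ libraries and holds letters of more than 1 motif. Capitals again mark the matches.
Ccr3: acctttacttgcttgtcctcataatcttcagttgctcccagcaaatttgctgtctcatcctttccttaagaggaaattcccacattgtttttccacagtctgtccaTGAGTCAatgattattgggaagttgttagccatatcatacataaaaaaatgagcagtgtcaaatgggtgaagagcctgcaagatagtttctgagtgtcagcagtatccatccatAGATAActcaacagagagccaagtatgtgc
The AP-1 match lies 144 bases before the start and the GATA match 30 bases before it. Ccr2 holds GATA letters 97 bases before its own start.

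A lysosomal protease was the gene with the next largest interaction after S100a4 among those lowest in MLN CCR8+ cells. Legumain (Lgmn, chr12:102394084-102439813, minus strand), a lysosomal endopeptidase, read 5.0, 5.79, 5.18 and 5.32 in heart CCR8+ libraries and 3.17, 2.99, 5.69 and 4.94 in heart CCR8- libraries. It was listed at 0 in 3 of the MLN CCR8+ libraries and at 0.13 in the other, against 6.21, 5.78, 3.99 and 3.72 in MLN CCR8- libraries. The interaction of 6.02 ± 0.89 (adjusted p = 0.00216) was called under every setting tried, though its size depends on the added 1 where the gene is listed at 0. Gm2a, the cofactor that presents GM2 ganglioside to its lysosomal enzyme, had an interaction of 2.03 ± 0.41 (adjusted p = 0.0283). Serglycin (Srgn), the core proteoglycan of secretory granules, averaged 12.70 ± 0.14 in heart CCR8+ cells and 12.36 ± 0.37 in heart CCR8- cells, with 10.39 ± 0.20 in MLN CCR8+ cells and 11.72 ± 0.32 in MLN CCR8- cells, an interaction of 1.67 ± 0.24 (adjusted p = 0.00154). Both heart groups were also above MLN CCR8- cells for Srgn, by 0.97 for heart CCR8+ (adjusted p = 0.00233) and by 0.64 for heart CCR8- (adjusted p = 0.0376).

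Tigit, an inhibitory receptor of effector Tregs, was at 9.56, 9.67, 9.90 and 10.28 in heart CCR8+ libraries and 9.58, 9.72, 8.96 and 10.22 in heart CCR8- libraries. MLN CCR8+ libraries were at 6.797, 7.06, 7.01 and 7.81, and MLN CCR8- libraries at 8.604, 9.07, 8.63 and 9.36. The MLN CCR8+ libraries lay below all others, with an interaction of 1.98 ± 0.37 (adjusted p = 0.0172). Glutaredoxin (Glrx), which reduces protein-glutathione bonds, had an interaction of 2.61 ± 0.47 (adjusted p = 0.0116). With Lgals1 these were the called genes among 25 effector and checkpoint genes, 3 positive and 0 negative, in a list whose median was -0.12 and whose other 22 members did not pass. Ly6a (Sca-1), an anchored surface protein of activated T cells, had an interaction of 1.35 ± 0.29 (adjusted p = 0.0452), and the LIM-only transcription cofactor Lmo4 one of 4.22 ± 0.83 (adjusted p = 0.0236).

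The remaining genes with MLN CCR8+ lowest act on actin or are among the most abundant in the libraries. Gmfg, a factor that debranches actin filaments in leukocytes, averaged 8.79 ± 0.25 in heart CCR8+ cells and 8.73 ± 0.22 in heart CCR8- cells, with 7.73 ± 0.30 in MLN CCR8+ cells and 9.30 ± 0.28 in MLN CCR8- cells, an interaction of 1.63 ± 0.28 (adjusted p = 0.00754). Its processed pseudogene Gmfg-ps had an uncalled interaction of 3.37 ± 0.76 (adjusted p = 0.0645), and reads may be shared between them. Sh3bgrl3, a small thioredoxin-like protein, had an interaction of 1.22 ± 0.19 (adjusted p = 0.00335), and its exons overlap Ubxn11 on the opposite strand. Thymosin beta 10 (Tmsb10), which binds actin monomers, had one of 0.82 ± 0.13 (adjusted p = 0.00427), and B2m, the light chain of MHC class I, one of 0.75 ± 0.16 (adjusted p = 0.0398). Tmsb10 ranked 30 to 39 in MLN CCR8+ libraries against 5 to 14 in the others, and B2m ranked 3 to 4 in MLN CCR8+ libraries and 2 to 3 in the others. Because the top 74 ranks carry the same values in every library, such differences are steps between ranks. The same holds for other genes within those ranks.

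**Figure D4:**
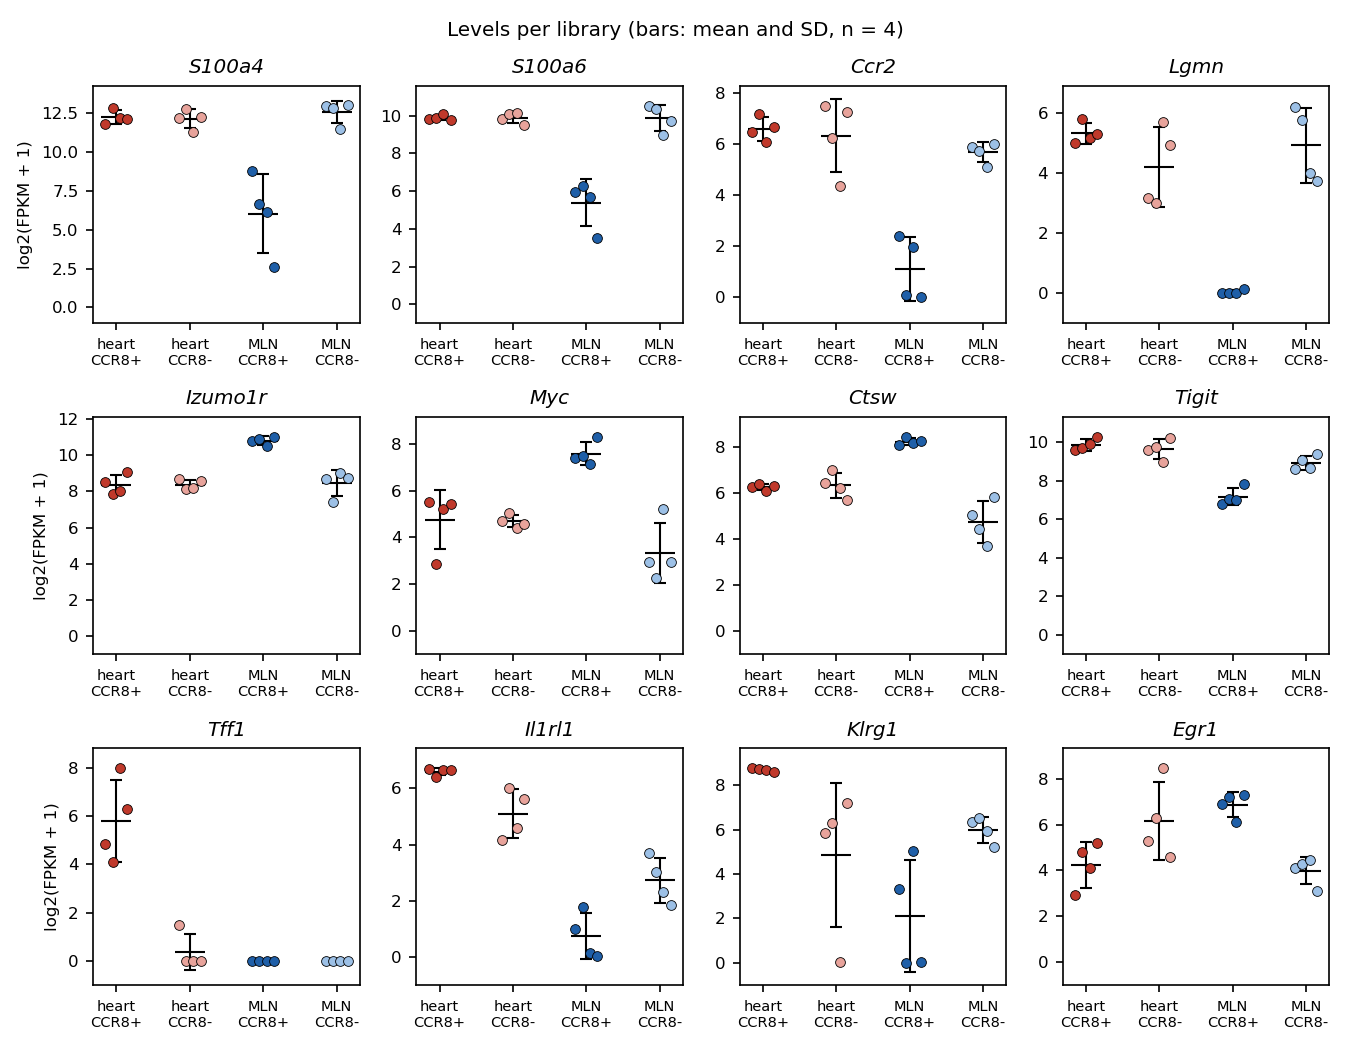
Levels of 12 called genes in each library (vertical axes, log2(FPKM + 1)) by group (horizontal axes); points are libraries and bars the mean and SD of 4. S100a4, S100a6, Ccr2, Lgmn and Tigit are lowest in MLN CCR8+ (Lgmn between 0.00 and 0.13), Izumo1r, Myc and Ctsw are highest there, Tff1 is highest in heart CCR8+, and Il1rl1, Klrg1 and Egr1 are split over several groups.

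For 6 genes MLN CCR8+ Tregs were highest. Izumo1r (chr9:14885814-14903949, minus strand), folate receptor 4, known as a surface marker of Tregs, read 8.54, 7.87, 8.03 and 9.05 in heart CCR8+ libraries and 8.66, 8.14, 8.18 and 8.55 in heart CCR8- libraries. It read 10.80, 10.92, 10.50 and 11.03 in MLN CCR8+ libraries and 8.68, 7.43, 9.02 and 8.74 in MLN CCR8- libraries. The 4 MLN CCR8+ libraries lay above all others, while the other 3 means were 8.37, 8.38 and 8.47. The interaction was -2.35 ± 0.41 (adjusted p = 0.00975).

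Myc (chr15:61985391-61990374, plus strand), the transcription factor that drives growth and ribosome production, was at 5.52, 2.87, 5.23 and 5.44 in heart CCR8+ libraries and 4.72, 5.03, 4.42 and 4.58 in heart CCR8- libraries. Its values were 7.39, 7.49, 7.15 and 8.29 in MLN CCR8+ libraries and 2.94, 2.26, 5.21 and 2.96 in MLN CCR8- libraries. MLN CCR8+ cells stood above the other 12 libraries, and the heart groups differed by 0.08 ± 0.59. Its interaction of -4.16 ± 0.83 (adjusted p = 0.0283) was called in 9 of 16 fits that left out a library (-4.78 to -3.53). Among 41 genes of Myc and growth, Myc alone was called. The list had 27 members with a negative interaction and a median of -0.30.

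Cathepsin W (Ctsw, chr19:5465043-5468507, minus strand), a cysteine protease known from cytotoxic lymphocytes, was at 6.25, 6.38, 6.09 and 6.32 in heart CCR8+ libraries and 6.45, 7.00, 6.22 and 5.69 in heart CCR8- libraries. MLN CCR8+ libraries had 8.07, 8.43, 8.18 and 8.26, and MLN CCR8- libraries 5.03, 4.42, 3.69 and 5.83. MLN CCR8+ cells were highest without overlap, and both heart groups were also above MLN CCR8- cells, by 1.52 for heart CCR8+ (adjusted p = 0.0223) and 1.60 for heart CCR8- (adjusted p = 0.0145). The interaction was -3.57 ± 0.51 (adjusted p = 0.00154) and was called under every setting, although Fibp overlaps its exons on the opposite strand and the kit is not stated to keep strand.

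The other genes with MLN CCR8+ highest were Ephx1, Rgs10 and Rpsa. Ephx1, the microsomal epoxide hydrolase, averaged 5.62 ± 0.57 in heart CCR8+ cells and 6.28 ± 0.39 in heart CCR8- cells, with 7.95 ± 0.60 in MLN CCR8+ cells and 6.04 ± 0.65 in MLN CCR8- cells (interaction -2.57 ± 0.52, adjusted p = 0.0311). Rgs10, which switches off G protein signals, had an interaction of -1.63 ± 0.34 (adjusted p = 0.0350), and Rpsa, a protein of the small ribosomal subunit, one of -1.12 ± 0.23 (adjusted p = 0.0321). In fits without 1 library, Rgs10 was called in 3 of 16 (-1.82 to -1.38) and Ephx1 in 8 (-2.78 to -2.27), and Rpsa in 8 (-1.23 to -0.999). Of 78 cytosolic ribosomal protein genes, 73 had a negative interaction with a median of -0.26, but only Rpsa and Rps27 were called. Reads of ribosomal protein genes can be shared with processed pseudogenes, which makes both uncertain.

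Some markers of other cells were also higher in MLN CCR8+ libraries, though none of their interactions was called in limma (0 at an adjusted p under 0.05). The macrophage and monocyte list was at 1.43 to 2.22 in MLN CCR8+ libraries and 0.67 to 1.27 in MLN CCR8- libraries, without overlap, and 13 of its 16 tested members had a negative interaction (median -0.98). Its defining genes were near 0, with Adgre1 at 0 in all 8 MLN libraries and Csf1r at most 0.05 in MLN CCR8+ libraries and 0.08 in MLN CCR8- libraries. The dendritic cell list overlapped, at 1.70 to 2.49 in MLN CCR8+ libraries and 0.56 to 2.24 in MLN CCR8- libraries, with 4 of 6 members negative and a median of -1.54. Of the B cell list, 4 of 12 members were tested, 3 of them negative, with a median of -1.71. Cd79a, a defining B cell gene, overlapped between the groups, at 4.56 to 7.80 in MLN CCR8+ libraries and 2.02 to 6.51 in MLN CCR8- libraries. Jchain, the joining chain of antibody-secreting cells, did not overlap, at 2.28 to 5.42 in MLN CCR8+ libraries and 0.00 to 0.19 in MLN CCR8- libraries. The part of these cells in the results was not tested beyond a covariate for the B cell and dendritic lists, chosen after the data were seen, whose counts are given at the end. The general T cell list was at 7.99 to 8.34 in MLN CCR8+ libraries and 7.97 to 8.23 in MLN CCR8- libraries, and none of its 15 tested members was called by limma (0 at an adjusted p under 0.05).

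Heart CCR8+ Tregs stood apart for 3 genes, all highest there. Trefoil factor 1 (Tff1, chr17:31161395-31165277, minus strand), a small secreted protein best known from stomach mucosa, read 4.83, 4.10, 7.98 and 6.28 in heart CCR8+ libraries and 1.49, 0.00, 0.00 and 0.00 in heart CCR8- libraries. All 8 MLN libraries were listed at 0. The interaction of 5.42 ± 0.95 (adjusted p = 0.00962) equals the heart difference, and its size depends on the added 1. Csf2 (chr11:54247271-54249667, minus strand), the cytokine GM-CSF, was at 2.87, 3.35, 2.65 and 2.65 in heart CCR8+ libraries and listed at 0 in the 4 heart CCR8- and the 4 MLN CCR8+ libraries. Of the MLN CCR8- libraries 3 were at 0 and 1 was at 2.31, below the lowest heart CCR8+ value. Its interaction was 3.46 ± 0.71 (adjusted p = 0.0321).

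Sv2c, a synaptic vesicle glycoprotein, averaged 5.01 ± 0.31 in heart CCR8+ cells and 2.68 ± 0.80 in heart CCR8- cells, with 1.32 ± 0.89 in MLN CCR8+ cells and 2.92 ± 0.23 in MLN CCR8- cells. Its 4 heart CCR8+ libraries were above all others, and the interaction was 3.92 ± 0.75 (adjusted p = 0.0197). Its heart CCR8 difference of 2.33 ± 0.53 was not called alone (adjusted p = 0.0693). Without 1 library, Csf2 was called in 6 of 16 fits (2.88 to 3.65) and Sv2c in 15 (3.51 to 4.24). Sv2c was lost without heart CCR8+ replicate 1. Csf2 was the called member of 23 tested cytokine and chemokine genes, whose median interaction was -0.18.

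Heart CCR8- cells stood apart for dermatopontin (Dpt, chr1:164796644-164824266, plus strand), a matrix protein made by fibroblasts. It was at 0.54, 0.10, 0.00 and 0.81 in heart CCR8+ libraries and 2.99, 3.12, 2.53 and 2.20 in heart CCR8- libraries. MLN CCR8+ libraries had 0.59, 1.49, 1.39 and 0.00, and MLN CCR8- libraries 0.00, 0.00, 0.00 and 0.34. The interaction was -3.13 ± 0.65 (adjusted p = 0.0351) and was called in 4 of 16 fits without 1 library (-3.42 to -2.92). All 13 tested fibroblast markers had a negative interaction, with a median of -1.14, and Dpt was the called one. The mean of the fibroblast list was 0.71 to 3.67 in heart CCR8+ and 2.92 to 4.51 in heart CCR8- libraries. Col1a1 ranged over 0.37 to 3.40 in heart CCR8+ and 2.78 to 4.08 in heart CCR8- libraries, and Pdgfra was at 0 in all heart libraries. With a covariate for the fibroblast, macrophage and endothelial lists the Dpt interaction was -3.28 ± 0.71 and was not called (adjusted p = 0.0606). Dpt is itself in the fibroblast list and so enters that covariate, and a part of fibroblast RNA in its interaction was not tested.

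MLN CCR8- Tregs stood apart for 3 genes. Ifi27l2a, a gene induced by interferon, was at 12.32, 12.69, 12.21 and 12.77 in heart CCR8+ libraries and 12.61, 12.82, 12.50 and 12.58 in heart CCR8- libraries. It was at 12.13, 11.99, 11.83 and 12.08 in MLN CCR8+ libraries and 13.17, 13.53, 12.97 and 13.71 in MLN CCR8- libraries. MLN CCR8- cells were highest without overlap, both heart groups were also above MLN CCR8+ cells, and the interaction was 1.21 ± 0.21 (adjusted p = 0.00786). None of the 29 tested genes on the interferon list, which does not hold Ifi27l2a, was called (0 by limma), and their median was 0.01.

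Prr13, a proline-rich protein, averaged 9.46 ± 0.14 in heart CCR8+ cells and 9.29 ± 0.37 in heart CCR8- cells, with 9.06 ± 0.09 in MLN CCR8+ cells and 10.34 ± 0.48 in MLN CCR8- cells, an interaction of 1.45 ± 0.29 (adjusted p = 0.0288). Snapc2, a subunit of the complex that transcribes small nuclear RNA genes, was lowest there, with 3.68 ± 0.82 in heart CCR8+ cells and 5.002 ± 0.50 in heart CCR8- cells, and with 4.32 ± 0.80 in MLN CCR8+ cells and 1.20 ± 1.23 in MLN CCR8- cells. Its interaction was -4.44 ± 0.86 (adjusted p = 0.0214). Fits without 1 library called Prr13 in 6 of 16 (1.27 to 1.67) and Snapc2 in 12 (-4.86 to -4.04).

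Of the 11 genes with no single group apart, Il1rl1 and Klrg1 are on the tissue repair list. Il1rl1 (chr1:40429570-40465415, plus strand), the IL-33 receptor, was at 6.70, 6.41, 6.65 and 6.64 in heart CCR8+ libraries and 4.16, 6.0, 4.61 and 5.63 in heart CCR8- libraries. It read 0.998, 1.79, 0.14 and 0.04 in MLN CCR8+ libraries and 3.70, 3.03, 2.30 and 1.85 in MLN CCR8- libraries. Heart CCR8+ libraries were above heart CCR8- libraries and MLN CCR8+ libraries below MLN CCR8- libraries, with no overlap in either tissue. The MLN difference of -1.98 ± 0.53 was called (adjusted p = 0.0400) and the heart difference of 1.501 ± 0.53 was not (adjusted p = 0.278). The interaction was 3.48 ± 0.75 (adjusted p = 0.0452), called in 4 of 16 fits without 1 library (3.15 to 3.83).

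Klrg1 (chr6:122270596-122282882, minus strand), an inhibitory receptor of terminally differentiated effector cells, had the largest interaction, 7.75 ± 1.69 (adjusted p = 0.0482). It was at 8.78, 8.75, 8.70 and 8.61 in heart CCR8+ libraries and 5.84, 6.32, 0.04 and 7.22 in heart CCR8- libraries. Values of 3.33, 0.00, 5.06 and 0.05 stood in MLN CCR8+ libraries, against 6.35, 6.52, 5.94 and 5.21 in MLN CCR8- libraries. CCR8+ cells were above CCR8- cells in the heart and below them in the MLN without overlap, but neither single difference was called (3.86 ± 1.19, adjusted p = 0.209, and -3.89 ± 1.19, adjusted p = 0.0743). The spread within heart CCR8- and MLN CCR8+ was wide, and the interaction was called in 3 of 16 fits without 1 library (6.14 to 8.73). The heart CCR8- value of 0.04 came from replicate 3, the library with the high endothelial list.

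Id2, an inhibitor of E protein transcription factors that favours effector fates, was at 11.35, 11.61, 11.11 and 11.33 in heart CCR8+ libraries and 10.58, 10.63, 10.17 and 10.25 in heart CCR8- libraries. It was at 7.15, 6.98, 7.14 and 5.54 in MLN CCR8+ libraries and 8.55, 8.11, 8.00 and 8.17 in MLN CCR8- libraries. Both heart groups exceeded both MLN groups, and the CCR8 difference was -1.505 ± 0.27 in the MLN (adjusted p = 0.00327), while that of 0.94 ± 0.27 in the heart was not called (adjusted p = 0.171). The interaction was 2.45 ± 0.38 (adjusted p = 0.00335). Ttc39c, a tetratricopeptide repeat gene, had a heart difference of 1.71 ± 0.56 that was not called (adjusted p = 0.237) and a called MLN difference of -2.06 ± 0.56 (adjusted p = 0.0417; interaction 3.76 ± 0.79, adjusted p = 0.0351, called in 6 of 16 fits without 1 library, 3.15 to 4.08). Klhl28, a kelch-like gene, averaged 3.66 ± 0.70 in heart CCR8+ cells and 1.80 ± 1.53 in heart CCR8- cells, with 0.42 ± 0.33 in MLN CCR8+ cells and 4.15 ± 1.10 in MLN CCR8- cells (interaction 5.59 ± 1.005, adjusted p = 0.0118). Its lowest heart CCR8- value, 0.01, was in replicate 3, the library with the high endothelial list.

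In the tissue repair list, 22 genes were tested and 3 were called, Il1rl1, Klrg1 and Tff1, all positive. This list, like the others, was written with earlier results of these data known, so its counts describe and test nothing. Of the 22, 18 had a positive interaction, as did 5342 of all 10369 tested genes. The median was 1.35, against 0.04 over all tested genes. The median CCR8 difference of the list was 1.11 in the heart and -0.19 in the MLN. Areg (chr5:91139599-91148432, plus strand), the growth factor amphiregulin, just missed the threshold. It was at 8.69, 9.20, 8.90 and 8.86 in heart CCR8+ libraries and 7.69, 9.004, 6.56 and 7.93 in heart CCR8- libraries, and at 1.69, 2.90, 0.65 and 0.00 in MLN CCR8+ and 6.10, 4.27, 4.31 and 2.70 in MLN CCR8- libraries. In the MLN the CCR8 difference was -3.03 ± 0.64 (adjusted p = 0.0103), and the interaction of 4.15 ± 0.91 had an adjusted p of 0.0506. Gata3, a transcription factor of tissue Tregs, had an interaction of 0.76 ± 0.56 (adjusted p = 0.612) and Batf, the AP-1 family factor needed for tissue Tregs, one of -0.06 ± 0.44 (adjusted p = 0.968).

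For 3 genes the levels were high in heart CCR8- and MLN CCR8+ cells. Egr1, an immediate early transcription factor induced by antigen and by cell handling, was at 2.91, 4.80, 4.10 and 5.21 in heart CCR8+ libraries and 5.29, 6.28, 8.46 and 4.58 in heart CCR8- libraries. It was at 6.88, 7.20, 6.11 and 7.30 in MLN CCR8+ libraries and 4.09, 4.28, 4.46 and 3.12 in MLN CCR8- libraries. The heart groups overlapped and the MLN groups did not, and the interaction was -4.79 ± 0.91 (adjusted p = 0.0188). The heart CCR8- value of 8.46 came from replicate 3, the library with the high endothelial list. Among 27 immediate early and dissociation stress genes, Egr1 was the called one, 21 were negative and the median was -0.93. The mean of that list was 5.46 to 6.22 in heart CCR8+ libraries and 6.25 to 7.28 in heart CCR8- libraries, with 4.63 to 5.47 in MLN CCR8+ libraries and 4.42 to 4.85 in MLN CCR8- libraries. The T cell receptor response list, which antigen also drives, had 0 of 24 called by limma, 18 negative and a median of -0.82.

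Haus5, a subunit of the augmin complex of the mitotic spindle, was at 0.00, 0.12, 1.48 and 0.00 in heart CCR8+ libraries and 2.92, 3.28, 3.20 and 1.04 in heart CCR8- libraries. MLN CCR8+ libraries had 3.18, 2.99, 1.06 and 3.27, and the MLN CCR8- libraries were listed at 0. Its interaction was -4.84 ± 0.88 (adjusted p = 0.0118), while the cell cycle list, with 27 tested, had 0 called by limma and a median of 0.03. Rps27, a ribosomal protein gene, was the third gene of this kind (interaction -0.89 ± 0.10, adjusted p = 0.000161). It exchanged ranks 1 to 3 with B2m and Tmsb4x, so its values are steps between those ranks. Tmsb4x, the actin-binding thymosin beta 4, had the smallest called interaction (0.59 ± 0.11, adjusted p = 0.0188), at rank 1 in every heart CCR8+ and MLN CCR8- library. Ppia, the isomerase cyclophilin A, had one of 0.75 ± 0.10 (adjusted p = 0.000868). It ranked 5 to 7 in heart CCR8+ and 11 to 16 in heart CCR8- libraries. In the MLN it ranked 22 to 29 in CCR8+ and 12 to 15 in CCR8- libraries, so its values are also rank steps.

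Apol9b, of the apolipoprotein L family, was graded over all groups. It was at 0.31, 0.83, 0.24 and 0.16 in heart CCR8+ libraries and 1.38, 1.81, 3.05 and 2.74 in heart CCR8- libraries, and at 6.01, 5.80, 5.52 and 6.87 in MLN CCR8+ and 3.41, 2.99, 3.31 and 3.49 in MLN CCR8- libraries. The CCR8 groups did not overlap in either tissue, and heart CCR8- replicate 3 lay among the MLN CCR8- values. The MLN difference of 2.75 ± 0.49 was called (adjusted p = 0.00327) and the heart difference of -1.86 ± 0.49 was not (adjusted p = 0.138). The interaction of -4.61 ± 0.70 (adjusted p = 0.00263) was called under every setting. Apol9a is a near copy, and reads may be split between them.

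The interactions of several well-known Treg genes were not called. Il2ra, the high-affinity IL-2 receptor chain, averaged 6.63 ± 0.41 in heart CCR8+ cells and 4.52 ± 0.83 in heart CCR8- cells, with 6.72 ± 0.26 in MLN CCR8+ cells and 3.59 ± 1.18 in MLN CCR8- cells (interaction -1.02 ± 0.69, adjusted p = 0.579). Tnfrsf9, the costimulatory receptor 4-1BB, had an interaction of -1.19 ± 0.49 (adjusted p = 0.320). Pdzk1ip1, a small membrane protein, averaged 5.75 ± 1.01 in heart CCR8+ cells and 0.04 ± 0.09 in heart CCR8- cells, with 6.12 ± 0.92 in MLN CCR8+ cells and 2.99 ± 1.89 in MLN CCR8- cells (interaction 2.57 ± 1.05, adjusted p = 0.314). For Foxp3 the interaction was -0.94 ± 0.58 (adjusted p = 0.531) and for the inhibitory receptor Ctla4 -0.12 ± 0.57 (adjusted p = 0.950). Il10, an inhibitory cytokine, had 1.03 ± 1.11 (adjusted p = 0.746), Ccr7, the lymph node homing receptor, -0.36 ± 0.73 (adjusted p = 0.879) and Tcf7, a factor of resting T cells, -1.15 ± 0.53 (adjusted p = 0.380). These standard errors leave room for differences of 1 log2 unit or more, so the test does not show that CCR8 acts alike in the tissues for them.

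Of the 19 tested Treg identity genes, 18 had a negative interaction, with a median of -1.19 and 1 call (Izumo1r). Their median CCR8 difference was -0.01 in the heart and 1.29 in the MLN, and their mean level was 5.98 to 6.37 in heart CCR8+ libraries and 5.80 to 6.502 in heart CCR8- libraries, with 6.28 to 6.92 in MLN CCR8+ libraries and 4.98 to 5.46 in MLN CCR8- libraries. MLN CCR8- cells were thus lowest in the list mean without overlap. No gene was called (0 by limma) among 19 resting lymphoid T cell genes (median -0.12), 52 of oxidative phosphorylation (0.17), 26 of glycolysis and hypoxia (-0.26), 19 of lipid and cholesterol metabolism (0.17) and 26 of the NF-kB pathway (-0.49). Across all genes 1274 had an unadjusted p under 0.05, and 44 more than the 42 had an adjusted p under 0.10.

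**Figure D5:**
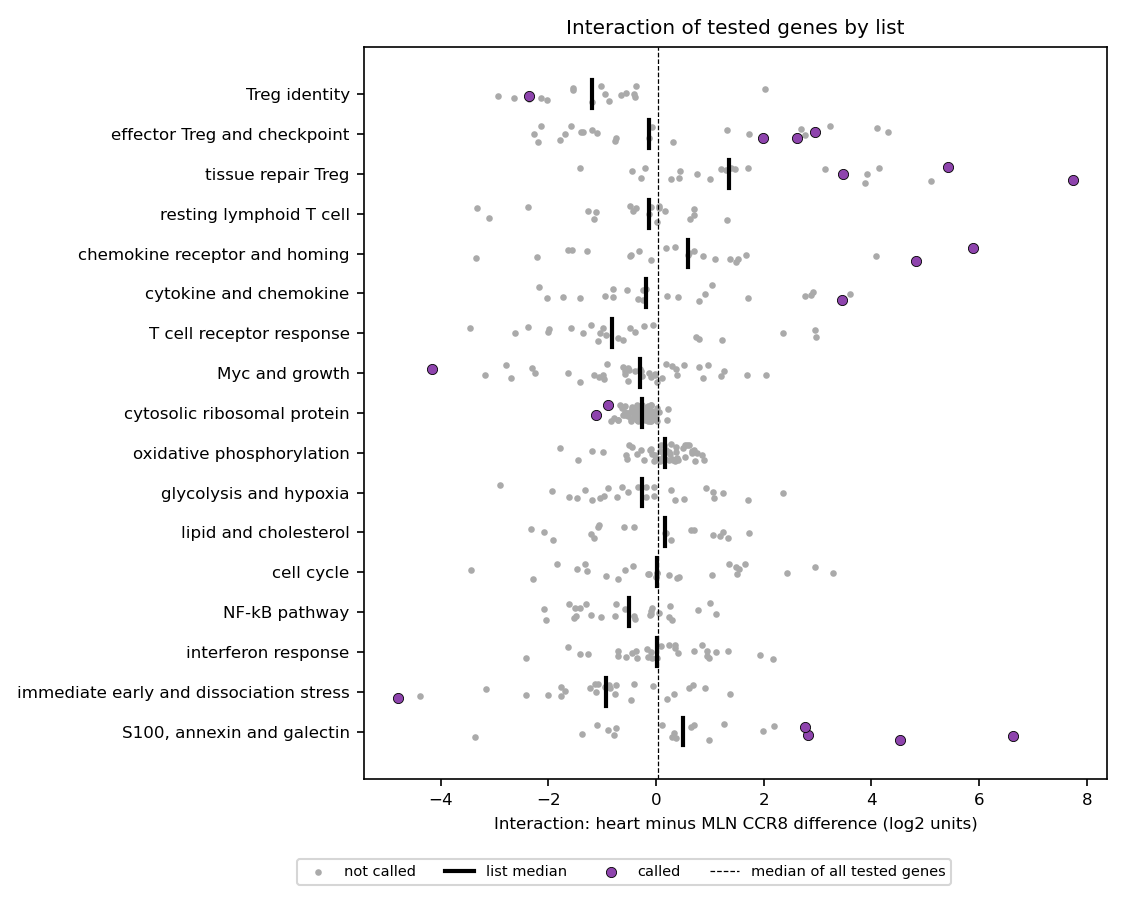
Interaction of each tested gene (horizontal axis, log2 units, heart minus MLN CCR8 difference) for the 17 function lists (down the page). Purple points were called, grey points were not, black bars are list medians and the dashed line is the median of all tested genes (0.04); the tissue repair median lies at 1.35 and the Treg identity median at -1.19.

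The counts depended on the settings, and fell most without the variance trend (15 called, MLN CCR8+ apart for 7) and without a filter on low values (18 called, MLN CCR8+ apart for 10). With a covariate for the fibroblast, macrophage and endothelial lists, 25 genes were called (16 positive, 9 negative), 21 of them among the 42. In levels not adjusted for the covariate, MLN CCR8+ stood apart for 16 of these 25, with 15 of the 16 not overlapping. The base is that of the main fit, 14.8% of the 2044 tested genes with MLN CCR8+ apart. Those levels are unchanged, so the overlap cannot show what the covariate does. Opposite signs in the tissues were found for 21 of these 25 genes and a larger MLN difference for 20. Of the S100, annexin and galectin list 4 genes were again called, but 1 each of the tissue repair list (Tff1) and the effector list (Lgals1) and 0 of the chemokine receptor list by limma. The interactions of the 21 genes whose call was lost stayed at 78.1% to 110% of their size without the covariate (median 94.9%), with adjusted p-values of 0.0503 to 0.163. These were Klrg1, Ccr3, Klhl28, Ccr2, Lmo4, Sv2c, Ttc39c, Il1rl1, Csf2, Glrx, Gm2a, Tigit, Prr13, Ly6a, B2m, Tmsb4x, Rpsa, Ephx1, Dpt, Snapc2 and Egr1. Without heart CCR8+ replicate 2 and heart CCR8- replicate 3, 33 genes were called, 28 of them among the 42. MLN CCR8+ stood apart for 20, signs were opposite for 26 and the MLN difference was larger for 26. The calls were then 4 in the S100 list, 3 in the effector list, 2 in the tissue repair list and 1 in the chemokine receptor list. With a covariate for the B cell and dendritic lists, 38 genes were called, 31 of them among the 42, with opposite signs for 27 and a larger MLN difference for 35. MLN CCR8+ stood apart for 23 of the 38 (20 not overlapping), again in levels not adjusted for the covariate and with the same base. The 11 genes lost there kept 92.0% to 107% of their size.

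Of the called genes for which this was not given above, fits without 1 library called Lmo4 in 12 of 16 (3.76 to 4.68), Gm2a in 11 (1.78 to 2.23), Ly6a in 3 (1.13 to 1.51) and B2m in 3 (0.67 to 0.90). The genes S100a6, S100a10, S100a11, Lgals1, Lgmn, Ctsw and Apol9b were called under every setting tried, in all 16 fits without 1 library included.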

How the data were processed

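RNA was sequenced from 16 libraries of sorted Tregs in 4 groups of 4. Per the submitters' processing notes, the authors used HISAT2 2.0.5, featureCounts 1.5.0-p3 and mm10 (GRCm38), and per the labels' protocols the libraries were made with the NEBNext Ultra RNA kit. The deposited values were read as log2(FPKM + 1): the columns are named FPKM, the highest value is 14.899 in every library, the top 74 ranks carry identical values, and without the log each library sums to 1007908 to 1007934. Such sums are also what TPM would give, and no source used here describes the log or quantile step. Depth is unknown, so no counting error is given.

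Of 19219 entries, 24 with date names were left out, and of the 19195 genes kept, 1966 were at 0 everywhere. The 10369 genes that reached an FPKM of 1 in at least 4 libraries were fitted in limma 3.58.1 (R 4.3.3), with a mean per group, all 16 libraries, a variance trend, and 12 residual and 7.01 prior degrees of freedom. The interaction and the 6 pairwise differences were taken from that fit, with two-sided p-values adjusted over all tested genes (Benjamini-Hochberg, threshold 0.05). The procedure was run on simulated data, with deviations shuffled over libraries and shifts planted in heart CCR8+ only. That simulation does not cover mice shared between libraries and is not used as support.

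The gene lists (27, with 657 of 664 genes present) were written from general knowledge. Genes, lists and tests were chosen with earlier results of these data known. The naming rule took 18 names given in advance, the 8 largest called genes per direction, the 4 largest per pattern and the 3 largest per list, which named 28 of the 42 called genes. The other 14 called genes, and S100a13, Gmfg-ps, Gzmb, Cxcr6 and Rora, were named after their values were seen. Coordinates are from GENCODE vM21 and promoters from RefSeq (GRCm38.p6). Besides the overlaps named with their genes, the exons of Rpsa, Ephx1 and Haus5 overlap another gene on the same strand. Those of Tff1 and Csf2 overlap one on the opposite strand. The sources used here do not say whether equal replicate numbers pair libraries. Deviations from the group means correlated by -0.0933 to 0.0589 over 24 pairs with equal numbers, and a small shared effect could be missed this way. Other settings were a pseudocount of 0.1, an FPKM minimum of 5, no filter, 3 scalings, no variance trend, array weights, a replicate block, covariates for marker lists of other cell types, 2 heart libraries left out, and each library left out in turn.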

Additional observations from a re-analysis of the deposited data

Results flagged for a closer look

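All 42 called genes are listed here because their CCR8 difference itself differed between heart and MLN (limma, values as heart minus MLN). With MLN CCR8+ apart and lowest these were S100a4 (6.62), Lgmn (6.02), Ccr3 (5.88), Ccr2 (4.84), S100a6 (4.52), Lmo4 (4.22), Lgals1 (2.96), S100a10 (2.82), S100a11 (2.77), Glrx (2.61), Gm2a (2.03), Tigit (1.98), Srgn (1.67), Gmfg (1.63), Ly6a (1.35), Sh3bgrl3 (1.22), Tmsb10 (0.82) and B2m (0.75). With MLN CCR8+ apart and highest they were Rpsa (-1.12), Rgs10 (-1.63), Izumo1r (-2.35), Ephx1 (-2.57), Ctsw (-3.57) and Myc (-4.16). Heart CCR8+ stood apart for Tff1 (5.42), Sv2c (3.92) and Csf2 (3.46), heart CCR8- for Dpt (-3.13), and MLN CCR8- for Prr13 (1.45), Ifi27l2a (1.21) and Snapc2 (-4.44). No single group stood apart for Klrg1 (7.75), Klhl28 (5.59), Ttc39c (3.76), Il1rl1 (3.48), Id2 (2.45), Ppia (0.75), Tmsb4x (0.59), Rps27 (-0.89), Apol9b (-4.61), Egr1 (-4.79) and Haus5 (-4.84).

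Groups of 4 were screened for a library set off from the other 3. For normally distributed values this rule flags about 1 in 20 (5%) by chance. Where 3 libraries share a value, such as 0 or a rank step, any other value is flagged, however close. A library was flagged in 29 of 236 groups. In heart CCR8+ these were Myc in replicate 2 (2.87, others 5.23 to 5.52), Haus5 in replicate 3 (1.48, others at most 0.12), and Il2ra (6.02, others 6.77 to 6.90) and Ctla4 (10.78, others 10.02 to 10.14) in replicate 4. In heart CCR8- replicate 1 they were Tff1 (1.49, others 0) and Il10 (9.10, others 7.12 to 7.18), in replicate 2 Rps27 (14.60, others 14.90), and in replicate 3 Batf (7.55, others 8.63 to 8.86), Tnfrsf9 (7.14, others 7.90 to 8.03), Pdzk1ip1 (0.18, others 0) and Cxcr6 (2.11, others 6.98 to 7.68). Heart CCR8- replicate 4 held Sh3bgrl3 (11.84, others 11.39 to 11.46), B2m (14.60, others 14.30) and Haus5 (1.04, others 2.92 to 3.28).

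In MLN CCR8+ replicate 4, Lgmn (0.13, others 0), Ttc39c (0.32, others 2.62 to 2.87), Id2 (5.54, others 6.98 to 7.15) and Gm2a (4.91, others 5.82 to 5.88) stood off. So did Gmfg-ps in replicate 1 (0.45, others at most 0.06), B2m (14.30, others 13.71) and Rora (2.0, others 1.15 to 1.28) in replicate 2, and Haus5 in replicate 3 (1.06, others 2.99 to 3.27). In MLN CCR8- replicate 3 both S100a4 (11.49, others 12.82 to 13.01) and S100a10 (12.18, others 12.90 to 13.05) were low. Foxp3 was high in MLN CCR8- replicate 1 (5.72, others 4.87 to 4.92). MLN CCR8- replicate 4 held Csf2 (2.31, others 0), B2m (14.60, others 14.30), Rps27 (14.30, others 14.60) and Dpt (0.34, others 0).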

How the results depend on the processing

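The 42 called genes (30 positive, 12 negative, MLN CCR8+ apart for 24) became 18 (14, 4 and 10) with no filter on low values, where more genes are tested, and 15 (11, 4 and 7) without the variance trend; the cause was not tested. With the covariate for other cell types 25 were called (16 positive, 9 negative). A pseudocount of 0.1 gave 35, an FPKM of 5 gave 45, median-of-ratios factors 40, equal sums 42 and quantile normalization 42. Equal sums and quantile normalization could change little, since the deposited values already have near-equal sums and identical top 74 ranks. Array weights gave 46, 2 heart libraries left out 33, and a covariate for the B cell and dendritic lists, chosen after the data were seen, 38. A replicate block gave 40, of which 36 were among the 42, although no source used here states that equal replicate numbers pair libraries. Leaving out 1 library at a time gave 29 to 62 called, 21 to 41 positive, 7 to 24 negative and 16 to 36 with MLN CCR8+ apart. The most came without MLN CCR8+ replicate 3 (62 called, 24 negative) and without MLN CCR8- replicate 3 (61 called, 20 negative), while 7 negative genes were called when MLN CCR8+ replicate 1 was omitted, and 7 when heart CCR8- replicate 2 was. Of the 42, 25 were called in all 16 of these fits and 7 under every setting, and no called gene changed sign in any. Among the genes followed, sign changes came only in uncalled ones. Ctla4 was at 0.095 with the B cell and dendritic covariate, and without 1 library the interaction ranged over -0.36 to 0.17 for Batf (-0.06 with all libraries), -0.50 to 0.29 for Ctla4 (-0.12), -0.078 to 1.62 for Il10 (1.03) and -0.86 to 0.11 for Ccr7 (-0.36). The size of an interaction in which a group is listed at 0 depends on the pseudocount: with 0.1, Haus5 reached -9.95 and Csf2 7.34. With 4 libraries a group, the median standard error of an interaction was 0.84.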

Other observations

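Other genes of effector Tregs, picked out after their values were seen, had large interactions that were not called. Gzmb, the cytotoxic protease granzyme B, was at 7.54, 7.73, 8.70 and 5.68 in heart CCR8+ libraries and 8.47, 5.97, 7.83 and 9.41 in heart CCR8- libraries. It was listed at 0 in all MLN CCR8+ libraries, against 7.26, 4.61, 1.74 and 4.83 in MLN CCR8- libraries, so MLN CCR8+ libraries were below all others. The interaction was 4.10 ± 1.23 (adjusted p = 0.168 in limma). Rora, a nuclear receptor of tissue lymphocytes, averaged 6.34 ± 0.21 in heart CCR8+ cells and 6.47 ± 0.48 in heart CCR8- cells, with 1.41 ± 0.40 in MLN CCR8+ cells and 4.67 ± 1.497 in MLN CCR8- cells, and its interaction was 3.13 ± 0.76 (adjusted p = 0.0905). For Cxcr6, a receptor of cells that stay in tissue, the interaction was 5.11 ± 2.06 (adjusted p = 0.304) and the spread was wide, with 2 of 4 MLN CCR8+ libraries at 0.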
